A study of Mus musculus with 21 samples.

Results

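Disease-associated microglia genes are followed here as 10 genes chosen by symbol, Trem2, Tyrobp, Cst7, Itgax, Clec7a, Axl, Lpl, Spp1, Csf1 and Cd68. They were measured by bulk RNAseq of the neocortex of rNLS8 mice, a model of TDP-43 proteinopathy, and of wild-type mice. All 10 were among the 48474 rows of the count table and among the 18248 genes that passed the filter on low counts. In rNLS8 mice 7 of the 10 were higher than in wild-type mice, against 23.0% of all genes tested. Cst7, Itgax and Clec7a were 16.5-fold, 8.51-fold and 8.04-fold higher in the mean, while Cd68, Trem2, Tyrobp and Csf1 were between 1.3-fold and 1.58-fold higher. Axl, Lpl and Spp1 did not pass the test. Cst7 and Itgax reached the filter's minimum of 10 reads in 0 of 11 wild-type libraries, Clec7a in 4 of 11, and each in all 10 rNLS8 libraries, so these 3 genes passed the filter through the group in which they were high. With at least 10 reads required in every library they were not tested, and 4 genes were higher.

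Microglia are the resident macrophages of the brain. Next to amyloid plaques, degenerating neurons or damaged myelin they can adopt a state called disease-associated microglia, in which genes for phagocytosis, lysosomes and lipid handling are raised and genes of the resting state are lowered. TREM2 is a surface receptor for lipids and lipoproteins that signals through the adaptor TYROBP, also called DAP12, to the kinase SYK, and full entry into this state depends on TREM2 in mouse models of amyloid pathology.

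The rNLS8 mice, labelled TG, carry a neurofilament heavy chain promoter that drives the tetracycline transactivator and a tetracycline-controlled human TDP-43 without its nuclear localization signal, so that the transgene is expressed almost only in neurons. The controls, labelled WT, are monogenic littermates. Every mouse of both groups had also received 350 µg of non-targeting ASO (antisense oligonucleotide), in 10 µL by intracerebroventricular injection, when it was 17 to 19 weeks old, and none was free of this injection. The doxycycline diet (200 mg/kg) that represses the transgene was replaced by standard chow 2 weeks after the injection, and the neocortex was taken after a further 3 weeks. The 11 wild-type and 10 rNLS8 mice came from cohorts, labelled as batch A (4 and 3 mice) and B (7 and 7 mice), and their sex was not given in the labels. The numbers given to mice below follow the order of deposit within a genotype and carry no other meaning.

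Each library held between 20700912 and 22263809 counted reads. Levels are normalized read counts, for which each count was divided by its library's TMM-corrected size and brought back to the scale of the mean library. The genotypes were compared in edgeR by the quasi-likelihood test, cohort being a covariate, and p-values were adjusted by the method of Benjamini and Hochberg over all 18248 genes with a threshold of 0.05. Of all genes tested, 23.0% were higher in rNLS8 mice and 21.7% lower, and the 7 of 10 are to be read against the former share. With scaling by library size only, the split of calls over all genes moved from 4190 higher and 3964 lower to 5832 higher and 2752 lower, and 8 of the 10 genes were then higher. The count of lower genes was 0 of 10, which was also the count at an unadjusted p under 0.05. The median log2 fold change was 0.56 over the 10 genes, including those 3, and -0.00067 over all genes tested. In these bulk samples, more cells of a type and more RNA per cell cannot be told apart, and neither can fewer cells and less RNA.

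Of the rNLS8 libraries, mouse 8 of cohort A alone passed the outlier limit given in the closing section, for some of the 10 genes. Mouse 8 of cohort A had the highest level of 9 of the 10 genes among rNLS8 mice, with Lpl as the exception. Mouse 9 of cohort A was next highest for 4 genes but among the lowest 3 for 2. Mouse 2 of cohort B was among the highest 3 for 6 genes and among the lowest 3 for 2. Mouse 1 of cohort B had the lowest level of 7 genes. Without mice 8 and 9 of cohort A, the same 7 of the 10 genes were higher, against 3942 of all 18390 genes tested in that fit. The plot of normalized counts by mouse shows each of these libraries.

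**Figure D1:**
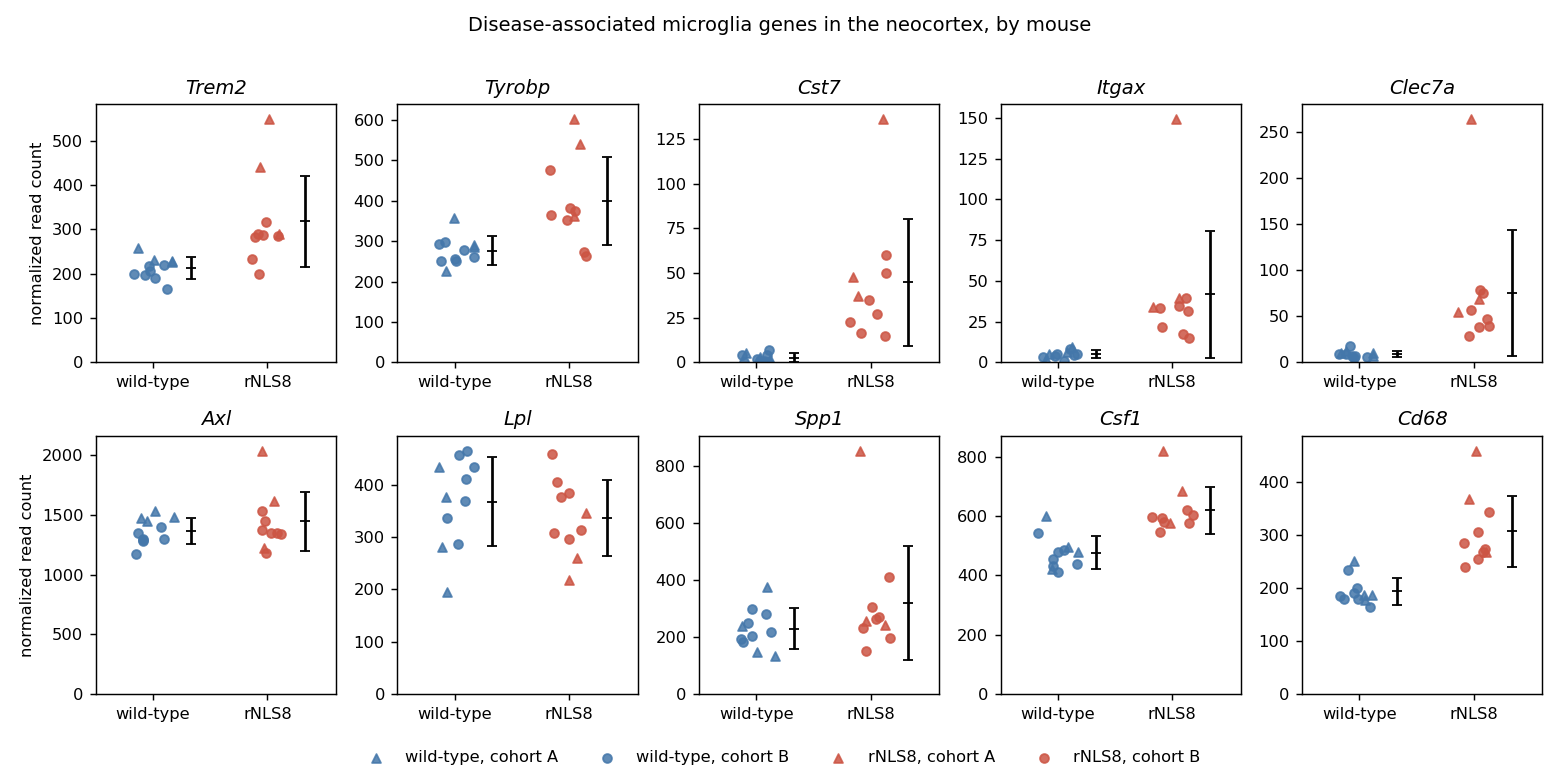
Normalized read counts (linear vertical axes from 0) of the 10 genes in 11 wild-type (blue) and 10 rNLS8 mice (red), with triangles for cohort A, circles for cohort B, and a bar for the mean ± SD of each genotype. All 10 rNLS8 mice lie above every wild-type mouse for Cst7, Itgax and Clec7a, 9 do for Cd68, 8 for Trem2 and 7 for Tyrobp, whereas none does for Lpl.

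Promoters are shown for the 3 genes whose levels did not overlap between genotypes and for Trem2 and Cd68, since these genes rose together. Each window is 300 bases from RefSeq (GRCm38.p6), from 250 bases before to 50 after an annotated start, written 5′ to 3′ on the strand of the gene. Capitals mark the letters GAGGAA on either strand, a core of sites for PU.1, the transcription factor that defines the macrophage lineage. The windows are chr2:150570165-150570464 (plus strand) for Cst7, chr7:128129300-128129599 (plus strand) for Itgax, chr6:129472730-129473029 (minus strand) for Clec7a, chr17:48346151-48346450 (plus strand) for Trem2 and chr11:69666121-69666420 (minus strand) for Cd68.
Cst7: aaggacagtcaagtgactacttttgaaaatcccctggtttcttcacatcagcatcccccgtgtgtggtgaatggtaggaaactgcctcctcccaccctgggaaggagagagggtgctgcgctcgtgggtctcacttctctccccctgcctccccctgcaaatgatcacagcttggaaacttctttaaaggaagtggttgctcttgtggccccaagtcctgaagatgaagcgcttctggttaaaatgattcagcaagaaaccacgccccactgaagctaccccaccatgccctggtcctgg
Itgax: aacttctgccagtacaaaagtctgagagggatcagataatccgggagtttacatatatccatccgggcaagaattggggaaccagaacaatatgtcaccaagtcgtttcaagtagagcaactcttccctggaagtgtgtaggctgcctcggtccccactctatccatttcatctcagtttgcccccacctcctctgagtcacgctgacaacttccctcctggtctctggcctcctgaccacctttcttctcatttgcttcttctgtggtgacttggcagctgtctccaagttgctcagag
Clec7a: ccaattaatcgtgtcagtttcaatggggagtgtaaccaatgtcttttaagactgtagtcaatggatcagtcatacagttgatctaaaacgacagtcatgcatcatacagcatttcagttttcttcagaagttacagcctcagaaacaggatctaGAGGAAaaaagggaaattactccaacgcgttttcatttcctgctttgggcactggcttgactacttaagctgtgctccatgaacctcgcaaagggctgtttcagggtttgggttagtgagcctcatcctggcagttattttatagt
Trem2: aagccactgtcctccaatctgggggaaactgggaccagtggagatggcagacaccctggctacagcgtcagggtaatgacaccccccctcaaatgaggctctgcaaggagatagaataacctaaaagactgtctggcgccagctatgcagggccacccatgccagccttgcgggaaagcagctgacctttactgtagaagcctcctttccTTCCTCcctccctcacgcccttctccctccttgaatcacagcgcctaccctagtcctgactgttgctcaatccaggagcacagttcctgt
Cd68: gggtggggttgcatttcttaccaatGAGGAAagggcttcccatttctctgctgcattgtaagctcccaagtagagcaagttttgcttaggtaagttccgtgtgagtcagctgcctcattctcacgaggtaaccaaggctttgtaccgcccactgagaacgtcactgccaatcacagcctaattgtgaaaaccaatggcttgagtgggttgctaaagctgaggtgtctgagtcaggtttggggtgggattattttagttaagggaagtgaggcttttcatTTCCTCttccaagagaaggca

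A window was found for 8 of the 10 genes (10 windows, since Clec7a and Spp1 have alternative starts), and Tyrobp and Lpl had no match. The letters GAGGAA occurred on one strand or the other in the windows of 5 of these 8 genes, namely Trem2, Clec7a, Axl, Spp1 and Cd68, and in 28.3% of all 32851 RefSeq promoter windows. Of the 5 genes, Axl and Spp1 did not pass the test between genotypes, and the windows of Cst7 and Itgax, which did, lack these letters. The E-box CACGTG, part of a motif of lysosomal gene promoters, was in the window of 0 of the 8 genes and in 7.15% of all windows. A core of the interferon-stimulated response element was in the window of 1 gene, Spp1, and in 3.44% of all windows. These matches are descriptions of the letters in the windows and were not tested.

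Trem2 (ENSMUSG00000023992, chromosome 17 of GRCm38, 48346401 to 48354147, plus strand) encodes the receptor. Its normalized count was lowest at 166, with a median of 217 and a highest value of 259, in wild-type mice. In rNLS8 mice the lowest was 199.9, the median 290 and the highest 549. The groups overlapped only by rNLS8 mice 1 and 3 of cohort B, and the other 8 rNLS8 mice were above every wild-type mouse. The mean rose from 213 ± 25.0 (SD, n = 11) to 318 ± 102 (SD, n = 10), a log2 fold change of 0.59 (SE 0.0989, adjusted p = 3.27e-05 by edgeR's quasi-likelihood test).

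The table holds a further row for the same symbol, written as a copy of Trem2, and how reads were divided between the rows was not given in the sources used here. Counts of both rows were within 5% of each other in 19 of 21 libraries. In rNLS8 mouse 1 the copy had 134 counts against 204, and in rNLS8 mouse 6 it had 227 against 298. By the copy, 7 rNLS8 mice were above every wild-type mouse and 2 were within their range. Mouse 1 was below every wild-type mouse, at 131 normalized counts against a lowest wild-type value of 163. The copy had a log2 fold change of 0.52 (SE 0.126, adjusted p = 0.0015 by edgeR), and the sum of both rows had one of 0.55 (SE 0.107, adjusted p = 0.000172 by edgeR). In cohort B alone the copy did not pass the test (log2 fold change 0.33, adjusted p = 0.0662 by edgeR). The level of Trem2 is therefore uncertain, while its direction was the same in each of these rows.

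Tyrobp (ENSMUSG00000030579, chromosome 7, 30413760 to 30417585, plus strand) encodes the adaptor that carries the signal of TREM2 and of several other receptors. In wild-type mice its normalized count ranged from 225 to 357 with a median of 278. In rNLS8 mice it ranged from 263 to 602 with a median of 369. Of the rNLS8 mice, 7 were above every wild-type mouse and 3 were within their range. The means were 277 ± 34.9 (SD, n = 11) and 399 ± 109 (SD, n = 10), and the log2 fold change was 0.53 (SE 0.106, adjusted p = 0.000238 by edgeR). This fold was close to that of its receptor.

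Cst7 (ENSMUSG00000068129, chromosome 2, 150570415 to 150578944, plus strand) encodes cystatin F, an inhibitor of lysosomal cysteine proteases such as cathepsin C. Few of its reads were counted in wild-type mice. Their normalized counts were between 0 and 7.22 with a median of 2.06, and 7 of 11 libraries held at most 3 reads, which is the limit that a count of 0 allows. In rNLS8 mice the lowest value was 14.7, the median 36.1 and the highest 136. Every rNLS8 mouse was above every wild-type mouse. The means were 2.72 ± 2.27 (SD, n = 11) and 44.7 ± 35.4 (SD, n = 10), from 29 reads over all wild-type and 466 over all rNLS8 libraries, and the log2 fold change was 4.0 (SE 0.411, adjusted p = 2.6e-08 by edgeR). Only 2 genes among all tested had a higher log2 fold change. This rank rests on a wild-type level near 0, and Cst7 passed the filter through the rNLS8 libraries.

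Itgax (ENSMUSG00000030789, chromosome 7, 128129547 to 128150657, plus strand) encodes CD11c, an integrin alpha chain of dendritic cells and of activated microglia. In wild-type mice its normalized count lay between 1.03 and 9.48 with a median of 4.90, and 3 of 11 libraries held at most 3 reads. In rNLS8 mice it lay between 14.7 and 149 with a median of 33.9, again without overlap. The log2 fold change was 3.07 (SE 0.333, adjusted p = 6.01e-08 by edgeR), from means of 4.90 ± 2.48 (SD, n = 11) and 41.7 ± 38.8 (SD, n = 10).

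Clec7a (ENSMUSG00000079293, chromosome 6, 129461591 to 129472779, minus strand) encodes dectin-1, a C-type lectin that recognizes beta-glucans and also signals through SYK. The GENCODE annotation classes it as a polymorphic pseudogene, which marks a gene that is disrupted in some strains. The normalized count of wild-type mice lay between 5.15 and 17.7 with a median of 9.28. The rNLS8 mice had between 28.4 and 265, with a median of 55.5, and all 10 were above the wild-type range. With means of 9.36 ± 3.57 (SD, n = 11) and 75.3 ± 68.6 (SD, n = 10), the log2 fold change was 2.98 (SE 0.31, adjusted p = 3.14e-08 by edgeR). Cst7, Itgax and Clec7a thus shared a low wild-type level, of at most 7, 9 and 17 reads per library, and their changes rest on up to 144, 158 and 280 reads in the highest rNLS8 library.

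Cd68 (ENSMUSG00000018774, chromosome 11, 69664213 to 69666153, minus strand) encodes a glycoprotein of the lysosomal membrane that is used as a marker of phagocytic microglia. Its normalized count was between 164 and 249.8 in wild-type mice, with a median of 185, and between 239 and 458 in rNLS8 mice, with a median of 279. A single rNLS8 mouse, number 5 of cohort B, lay within the wild-type range. The mean rose from 193 ± 25.6 (SD, n = 11) to 306 ± 66.5 (SD, n = 10), a log2 fold change of 0.67 (SE 0.093, adjusted p = 2.51e-06 by edgeR).

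Csf1 (ENSMUSG00000014599, chromosome 3, 107741048 to 107760469, minus strand) encodes a growth factor on which microglia depend for survival and which acts through CSF1R. Wild-type mice ranged from 411 to 601 normalized counts with a median of 477. The rNLS8 mice ranged from 546 to 821 with a median of 595. Of the rNLS8 mice 4 were above every wild-type mouse, and the other 6 were above the wild-type median but within the range. The means were 477 ± 56.2 (SD, n = 11) and 620 ± 79.6 (SD, n = 10), and the log2 fold change was 0.39 (SE 0.0643, adjusted p = 2.7e-05 by edgeR).

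Axl (ENSMUSG00000002602, chromosome 7, 25757273 to 25788705, minus strand) encodes a receptor tyrosine kinase for GAS6 and protein S that takes part in the uptake of dead cells. It had between 1173 and 1537 normalized counts in wild-type mice, with a median of 1346, and between 1182 and 2040 in rNLS8 mice, with a median of 1364. Only mice 8 and 10 of cohort A were above every wild-type mouse. The log2 fold change of 0.09 (SE 0.0613, adjusted p = 0.225 by edgeR) did not pass the threshold, and the means were 1367 ± 112 (SD, n = 11) and 1446 ± 246 (SD, n = 10). It passed under 2 of the 34 alternatives, with scaling by library size alone (0.17 on the log2 scale, adjusted p = 0.0316 by edgeR) and without rNLS8 mouse 9 (log2 fold change 0.14, adjusted p = 0.0266 by edgeR).

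Lpl (ENSMUSG00000015568, chromosome 8, 68880491 to 68907448, plus strand) encodes lipoprotein lipase, which releases fatty acids from lipoproteins. It was the only one of the 10 genes with a lower mean in rNLS8 mice, but the difference did not pass the test. Its normalized count was 195 to 465 (median 376) in wild-type and 217 to 459 (median 330) in rNLS8 mice, so that all 10 rNLS8 mice were within the wild-type range. The means were 368 ± 85.5 (SD, n = 11) and 336 ± 72.0 (SD, n = 10), with a log2 fold change of -0.15 (SE 0.12, adjusted p = 0.319 by edgeR). It passed under none of the 34 alternatives.

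Spp1 (ENSMUSG00000029304, chromosome 5, 104435118 to 104441050, plus strand) encodes osteopontin, a secreted ligand of integrins and CD44. The annotated locus overlaps that of Gm42793 on the same strand, and reads from the overlap cannot be assigned with certainty. Its normalized count was 132 to 376 (median 218) in wild-type and 150.3 to 852 (median 260) in rNLS8 mice. Only mouse 8 of cohort A and mouse 7 of cohort B were above the wild-type range. The means of 229 ± 70.6 (SD, n = 11) and 318 ± 199.8 (SD, n = 10) differed by a log2 fold change of 0.46 (SE 0.229, adjusted p = 0.109 by edgeR). Without mouse 8 this fell to 0.17 (adjusted p = 0.469 by edgeR).

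**Figure D2:**
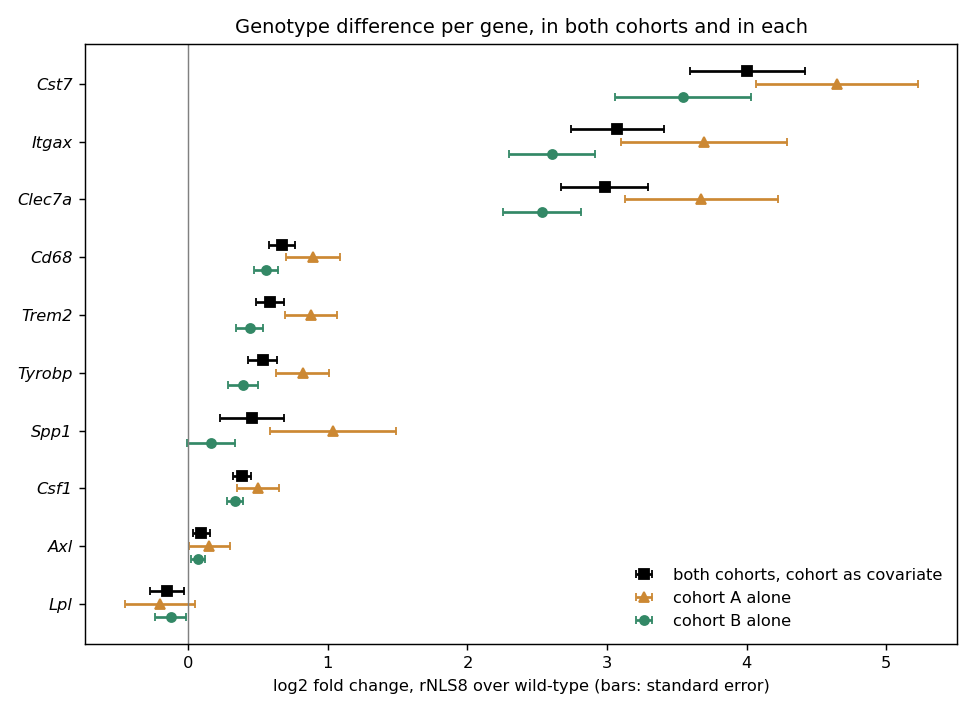
Log2 fold change of rNLS8 over wild-type mice for the 10 genes (horizontal axis, log2 scale, bars are standard errors) with both cohorts and cohort as covariate (black squares), in cohort A alone (orange triangles, 4 and 3 mice) and in cohort B alone (green circles, 7 and 7 mice). Cst7, Itgax and Clec7a lie between 2.54 and 4.65 in every fit, and the point of cohort A is farther from 0 than that of cohort B for each of the 10 genes.

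The direction of each gene was the same in both cohorts. In cohort A alone 6 of the 10 genes were higher, against 6.99% of the 18580 genes tested there, and in cohort B alone 7 of 10 were higher, against 19.3% of 18220. The gene that did not pass in cohort A was Csf1 (log2 fold change 0.50, adjusted p = 0.0533 by edgeR), which passed in cohort B (0.33, adjusted p = 0.000151). Trem2 had a log2 fold change of 0.88 in cohort A and 0.44 in cohort B, Tyrobp of 0.82 and 0.39, and Cd68 of 0.89 and 0.56. For Cst7 these values were 4.65 and 3.54, for Itgax 3.69 and 2.61 and for Clec7a 3.68 and 2.54. Whether the change differed between the cohorts was tested by the interaction of genotype and cohort in edgeR. The call was made for 0 of the 10 genes and for 0% of all 18248 genes, of which 1030 had an unadjusted p under 0.05. Among the 10, Trem2 alone had such a p (difference of cohort A minus cohort B 0.41 on the log2 scale, SE 0.196, unadjusted p = 0.0488, adjusted p = 0.875 by edgeR). Taken as cohort B minus cohort A, this difference was -0.41, and it was -0.18 without rNLS8 mouse 8 and -0.62 without rNLS8 mouse 10. Cohort A holds mice 8 and 9, 2 of its 3 rNLS8 mice.

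Without mouse 8, the log2 fold changes were 3.65 for Cst7, 2.63 for Itgax and 2.56 for Clec7a, and those of Trem2, Tyrobp, Csf1 and Cd68 were 0.50, 0.47, 0.34 and 0.60. Without both mice 8 and 9 they were 3.69, 2.66 and 2.60 for the first 3 genes and 0.42, 0.39, 0.32 and 0.54 for the others. Each of these 7 genes passed the threshold of edgeR's test in both fits, and the largest adjusted p among them was 0.00332, for Tyrobp. Of all genes, 4046 of 18306 were higher without mouse 8 and 3942 of 18390 without both.

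**Figure D3:**
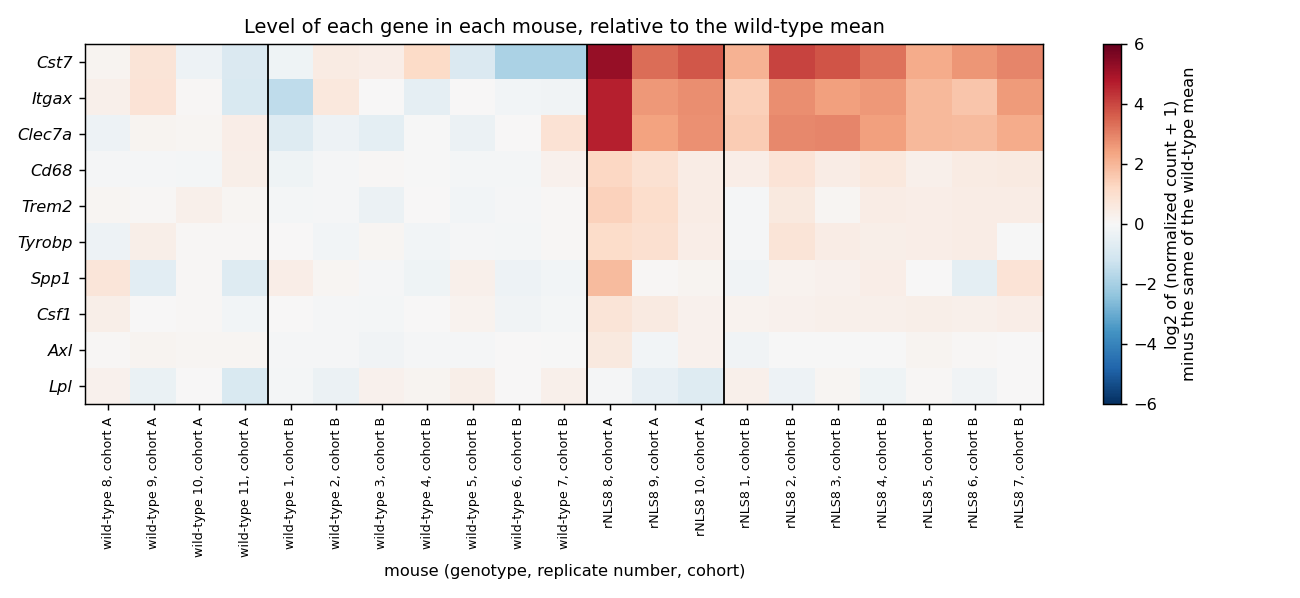
Level of each of the 10 genes (rows, in order of log2 fold change) in each mouse (columns, by genotype and cohort, split by black lines) as log2 of the normalized count plus 1, minus the same for the wild-type mean, with red for higher and blue for lower. The column of rNLS8 mouse 8 of cohort A holds the highest rNLS8 level in every row but that of Lpl, and the column of rNLS8 mouse 1 of cohort B is the palest of the rNLS8 columns for Cst7, Itgax and Clec7a.

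Levels can be set against each other per length, as CPM (counts scaled to the TMM-corrected total of the library) per kilobase of annotated exon. The length joins all annotated exons of a gene (4946 bases for Trem2, 667 for Tyrobp) and can exceed that of the transcripts present, so the order is rough. Trem2 is placed by its first row alone, and its place is uncertain for that reason too. In wild-type mice the order was Tyrobp (19.4 ± 2.45, SD), Axl (12.7 ± 1.04), Cd68 (7.20 ± 0.956), Spp1 (6.50 ± 2.01), Csf1 (4.23 ± 0.498), Trem2 (2.01 ± 0.236), Lpl (1.64 ± 0.382), Clec7a (0.166 ± 0.0635), Cst7 (0.129 ± 0.108) and Itgax (0.0478 ± 0.0241). Among neighbours in this order, Cd68 and Spp1, Spp1 and Csf1, Trem2 and Lpl, Clec7a and Cst7, and Cst7 and Itgax were no further apart than the sum of their SDs. In rNLS8 mice Tyrobp was still first (28.0 ± 7.66) and Itgax last (0.407 ± 0.379), Cst7 (2.12 ± 1.68), Clec7a (1.34 ± 1.22) and Lpl (1.503 ± 0.322) were no further apart than the sums of their SDs, and Trem2 reached 3.01 ± 0.968. The coefficient of variation was larger among rNLS8 than among wild-type mice for Trem2 (32.1% and 11.7%), Tyrobp (27.3% and 12.6%) and Cd68 (21.7% and 13.3%), and without mouse 8 the rNLS8 values of these genes were 22.5%, 23.3% and 14.5%. For Itgax (93.1% and 50.5%), Clec7a (91.1% and 38.2%) and Spp1 (62.9% and 30.9%) a larger value rested on mouse 8, without which the rNLS8 values were 31.3%, 32.6% and 28.0%, below those of wild-type mice. That of Cst7 was 79.3% in rNLS8 mice, 46.1% without mouse 8 and 83.7% in wild-type mice.

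The level of microglia and macrophage genes in general was also higher in rNLS8 mice, as was that of 7 of the 10 genes. A list of 19 genes of these cells, among them Aif1, Spi1 and the C1q genes, contained 15 genes that were higher and 0 that were lower, against 23.0% and 21.7% of all genes, with a median log2 fold change of 0.48. Their summed level was 447 to 527 CPM in wild-type mice and 469 to 839 CPM in rNLS8 mice. It was highest in mouse 8 (839 CPM), next in mouse 9 (749.5 CPM) and lowest in mouse 1 (469 CPM), which was the only rNLS8 mouse within the wild-type range. In that list Ctss, a lysosomal cysteine protease, had the highest log2 fold change (0.86, adjusted p = 5.56e-10 by edgeR), followed by Ly86 (0.84) and Irf8 (0.70), while Hpgds (-0.05, adjusted p = 0.725) and Coro1a (-0.10, adjusted p = 0.24) were lowest. The part of this general level in the differences of the 10 genes was not tested.

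Levels were also taken per 100 CPM of that sum, a ratio chosen after the values were seen and given with no test. The rNLS8 median over the wild-type median ran from 0.645 (Lpl) to 1.27 (Cd68) for all but Cst7, Itgax and Clec7a. Those 3 genes had few reads in wild-type mice and passed the filter through the rNLS8 libraries. Cst7 went from a median of 0.0215 CPM in wild-type to 0.251 in rNLS8 mice, Itgax from 0.0478 to 0.261 and Clec7a from 0.0936 to 0.407, and for each of them all 10 rNLS8 mice stayed above every wild-type mouse. Cd68 went from 1.79 to 2.28 with 4 of 10 mice above the wild-type range, Trem2 from 2.04 to 2.28 with 2 of 10, Tyrobp from 2.67 to 2.95 with 3 of 10 and Csf1 from 4.54 to 4.63 with 1 of 10. Axl went from 13.2 to 11.2, and by this ratio 8 of 10 rNLS8 mice lay under the wild-type range. For Lpl the medians were 3.74 and 2.42 and for Spp1 2.23 and 1.96. If part of a gene's RNA comes from other cells, a higher sum lowers this ratio with no change in microglia. Bulk tissue does not show which cells hold the RNA of Axl, Lpl, Spp1 or Csf1, so a lower ratio is no result about microglia.

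**Figure D4:**
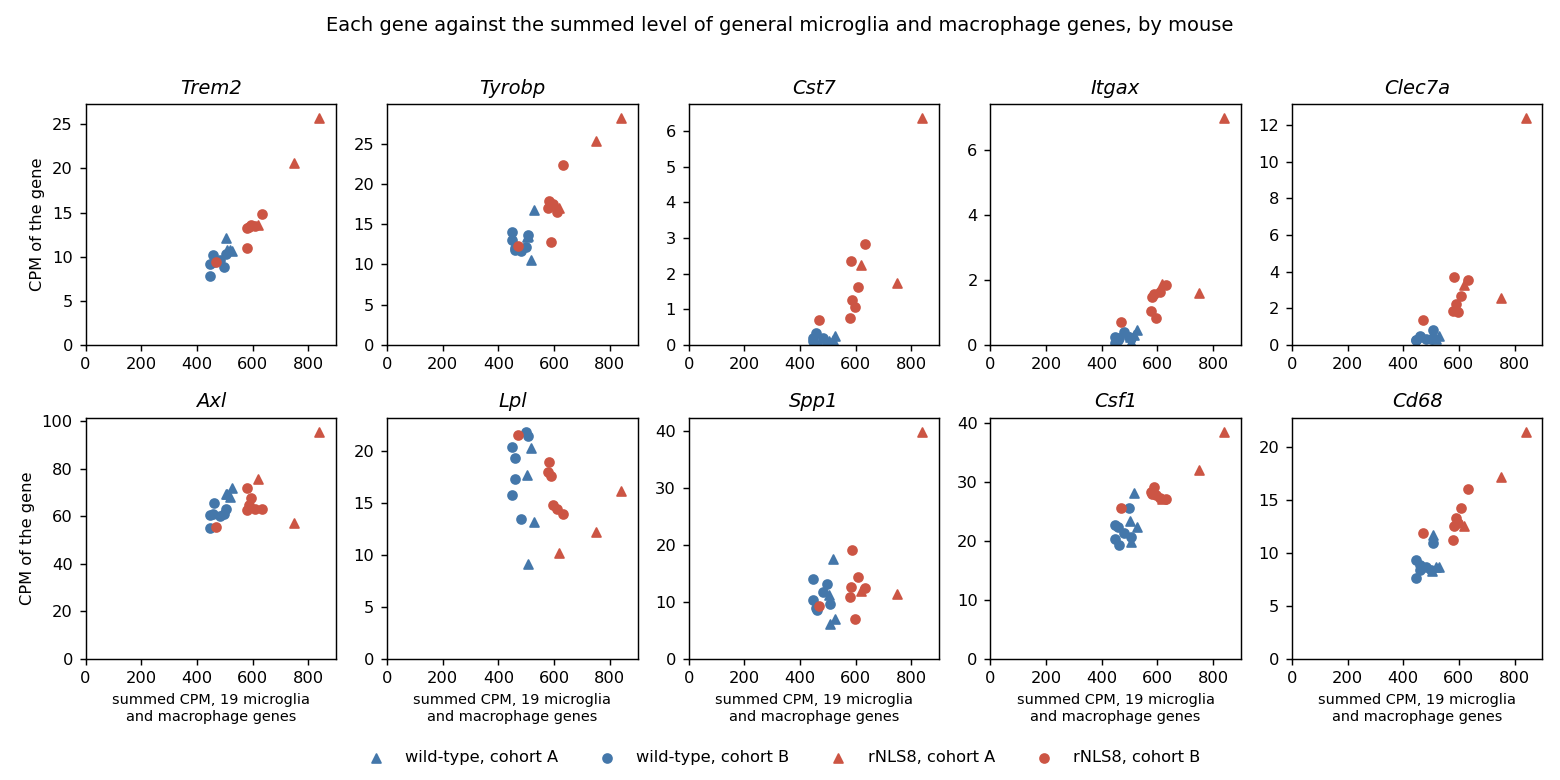
CPM of each of the 10 genes (vertical axes, linear, from 0) against the summed CPM of 19 general microglia and macrophage genes (horizontal axes) in each mouse, with wild-type mice in blue, rNLS8 mice in red, triangles for cohort A and circles for cohort B. Trem2 and Cd68 rise with the sum across both genotypes, while Cst7, Itgax and Clec7a stay near 0 in all wild-type mice, also at sums close to that of rNLS8 mouse 1 (469 CPM).

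Genes of the resting state are the other side of this program. Of 18 homeostatic microglia genes 5 were higher and 3 were lower, shares near the 23.0% and 21.7% of all genes tested. With scaling by library size only these counts were 8 and 2, against 5832 and 2752 of all 18248 genes. P2ry12, a purinergic receptor of resting microglia, was lower by 0.35 on the log2 scale (log2 fold change -0.35, adjusted p = 2.62e-05 by edgeR), as was Mef2c (-0.41, adjusted p = 0.00012), a transcription factor that neurons express as well. Sparc (0.57) and Olfml3 (0.24) were higher. Tmem119 and Cx3cr1, common markers named here after their values were seen, had log2 fold changes of 0.18 (adjusted p = 0.00921 by edgeR) and 0.07 (adjusted p = 0.196). The summed level of the 18 genes was 2128 to 2467 CPM in wild-type and 2191 to 2806 CPM in rNLS8 mice, but 81.9% of it came from Cst3, Mef2c, Sparc and Bin1, which other brain cells express as well. Without these 4, a choice made after the values were seen, the sum of the other 14 was 380.0 to 442 CPM in wild-type and 408 to 545 CPM in rNLS8 mice, highest in mouse 8.

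A list for TREM2 signalling held genes downstream of TREM2 and TYROBP, and also ligands of TREM2, proteases that shed it and other receptors. Of its 23 tested genes (28 listed), 8 were higher and 0 were lower, against 23.0% and 21.7% of all genes, with a median log2 fold change of 0.11. This count is therefore not one of downstream genes alone. In cohort B alone 5 were higher and 2 were lower, and 19.3% of all genes were higher there. The kinase Syk did not pass the test (-0.16, adjusted p = 0.254 by edgeR), nor did the phosphatase Inpp5d (0.00, adjusted p = 0.974), which opposes the pathway, or Card9 (-0.14, adjusted p = 0.574), which acts below dectin-1. The phospholipase Plcg2 was higher (0.25, adjusted p = 0.0285 by edgeR), as were the phosphatase Ptpn6 (0.65) and the adaptor Pik3ap1 (0.63), whereas the kinase Prkcd did not pass (-0.38, adjusted p = 0.444). Treml2, a relative of Trem2, rose from 8.56 to 24.8 normalized counts in the mean (1.52, adjusted p = 1.26e-06 by edgeR) and also has a further row in the table. Hcst, an adaptor related to TYROBP, was below the filter at means of 4.90 and 7.19 normalized counts. Adam10 (0.04) and Adam17 (-0.03), the proteases that shed TREM2, did not pass, and neither did its lipoprotein ligands Apoe (0.04, adjusted p = 0.487 by edgeR) and Clu (0.11, adjusted p = 0.101).

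Among ligands, receptors and partners of the other members, 16 of 33 tested genes (40 listed) were higher and 5 were lower, against 23.0% and 21.7% of all genes, with a median log2 fold change of 0.11. Csf1r, the receptor of CSF1, was slightly higher (0.13, adjusted p = 0.0201 by edgeR), and Il34, the other ligand of that receptor, was lower (-0.17, adjusted p = 0.0399). Gas6, the ligand of AXL, was slightly higher (0.12, adjusted p = 0.0367), Tyro3 was lower (-0.29, adjusted p = 2.55e-05), and Pros1 (0.08) and Mertk (0.11) did not pass. Itgb2, the beta chain that pairs with CD11c, was higher (0.49, adjusted p = 0.00102), whereas Itgam, the related alpha chain CD11b, was not (0.05, adjusted p = 0.514).

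Of the receptors of osteopontin, Cd44 (0.57, adjusted p = 0.000669 by edgeR) and Itgb1 (0.21, adjusted p = 0.00104) were higher and Itgav was lower (-0.60, adjusted p = 2.39e-06), and Itgb3 (-0.14) and Itgb5 (0.08) did not pass. Itga4, an integrin chain of leukocytes, was lower as well (-0.69). Of the proteins that lipoprotein lipase needs or that inhibit it, Lmf1 (0.06) and Angptl4 (0.02) did not pass and Gpihbp1, its anchor on capillaries, was below the filter, while Lmf2, named after its value was seen, was higher (0.16, adjusted p = 0.0142 by edgeR). Of the lysosomal proteases listed as partners of cystatin F, Ctsc (0.41), Ctsl (0.34), Ctsh (0.35) and Lgmn (0.28) were higher, with adjusted p between 1.49e-05 and 0.00177 by edgeR, and so was Ctss (0.86). Ctsb, a related protease of another list that was named after its value was seen, did not pass (-0.05, adjusted p = 0.446). Of the relatives of cystatin F, Cst6 was lower (-0.77, adjusted p = 9.62e-06) and Cst3, cystatin C, also named after its value was seen, was higher (0.23, adjusted p = 0.00269). Lamp1 (0.14, adjusted p = 0.00145) and Lamp2 (0.15, adjusted p = 0.0302), membrane proteins of the lysosome like CD68, rose by less than Cd68.

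Of 32 other tested genes of the disease-associated state (39 listed), 19 were higher and 5 were lower, against 23.0% and 21.7% of all genes, with a median log2 fold change of 0.24. The 3 with the highest log2 fold change were the chemokine Ccl5 (4.83, adjusted p = 2.7e-10 by edgeR), Lgals3, which encodes galectin-3 (2.04, adjusted p = 1.77e-05), and Ifitm3 (1.62, adjusted p = 6.16e-10). Ccl5 and Ifitm3 are also known as interferon-stimulated genes. The 2 with the lowest were Dkk2 (-0.82) and Timp2 (-0.38), of which the latter had a mean of 7689 normalized counts in wild-type mice. Genes of the interferon response, listed because Axl is a known target, were higher in 10 of 11 cases, against 23.0% of all genes, with a median log2 fold change of 2.73. Their summed level was 120.1 to 137 CPM in wild-type and 191 to 561 CPM in rNLS8 mice, with the highest value in mouse 8, while Axl itself had the small difference given above.

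**Figure D5:**
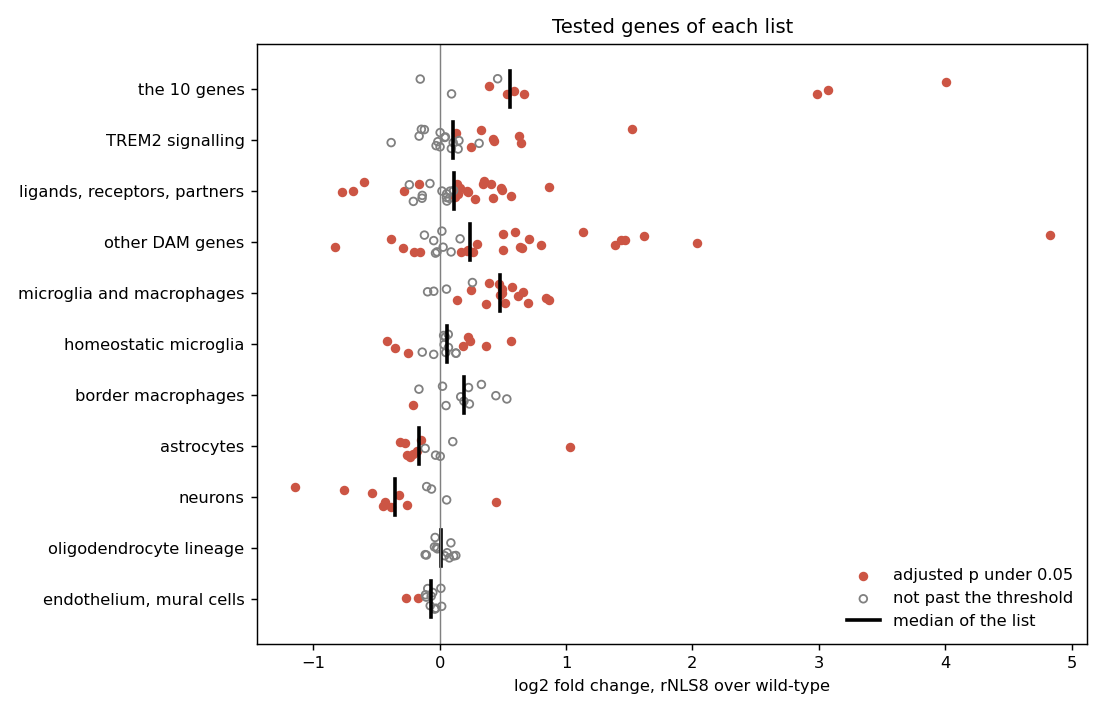
Log2 fold change of rNLS8 over wild-type mice (horizontal axis) for each tested gene of the 10 genes, of related lists and of cell type lists (rows), with filled red points for an adjusted p under 0.05, open grey points otherwise, and a black bar for the median. The medians are 0.56 for the 10 genes, 0.48 for microglia and macrophage genes, 0.06 for homeostatic microglia and -0.35 for neurons. That of the 10 genes includes Cst7, Itgax and Clec7a, which passed the filter through the rNLS8 libraries, so it is not to be ranked against the other medians.

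Markers of other cells that could carry the 10 genes were read in the same libraries. Border macrophage genes summed to 45.1 to 61.9 CPM in wild-type and 38.0 to 64.6 CPM in rNLS8 mice, and of 11 tested 0 were higher and 1, Stab1, was lower, while with scaling by library size only 1 was higher and 0 were lower. By that scaling 5832 of all 18248 genes were higher and 2752 were lower. In the main fit the median log2 fold change of the border macrophage list was 0.19. Its highest were Ms4a7 (0.53), Lyve1 (0.44) and Cd209f (0.33), none of which passed the test. Its lowest were Stab1 (-0.21) and Maf (-0.16), of which Maf did not pass. Stab1 (407 normalized counts) and Maf (391) also had the highest wild-type means of the list, so they weigh most in its sums. Monocyte and neutrophil genes were near 0, with sums of 0.825 to 2.79 CPM in wild-type and 1.51 to 8.01 CPM in rNLS8 mice, the highest again in mouse 8, and 1 of 12, Ly6c2, passed the filter (log2 fold change 0.58, adjusted p = 0.22 by edgeR). In the fit without a filter, 4 of the other 11 were higher and 0 were lower. They were Plac8 (3.17, adjusted p = 6.41e-07 by edgeR, means of 1.51 and 14.2 normalized counts), Ltf (2.27), Chil3 (1.80) and Ccr2 (0.88), named after their values were seen. Of the 134 reads of Ltf 87 were in 1 library, and 1 rNLS8 mouse was above every wild-type mouse, so its call rests largely on that library. The share of all genes called in the fit without a filter is not given here, so these counts have no background beside them. Of 14 lymphocyte and dendritic cell genes 3 were tested, of which Zbtb46 (-0.25) and Cd4 (-1.24) were lower and Flt3 (-0.03) was not, and without a filter 1 of the other 11, Gzmb, was higher (2.45, adjusted p = 0.00975 by edgeR, from 12 reads in all). Ccl8 of the border macrophage list was also higher without a filter (1.14, adjusted p = 0.0316 by edgeR). Sums of the lymphocyte and dendritic list were 18.6 to 32.9 CPM in wild-type and 17.0 to 24.5 CPM in rNLS8 mice. The highest wild-type means in it were those of Zbtb46 (266 normalized counts), Cd4 (174) and Flt3 (110). The T cell genes Cd3e and Cd8a, named after their values were seen, had means of 0.938 and 0.472, so this sum says little of T cells. The part of these cells in the differences of the 10 genes was not tested. In each of these lists 0 genes were at 0 counts in all libraries. Dendritic cells share Itgax. Of the 12 genes of each list, 1 was higher and 7 were lower for astrocytes (3 lower with scaling by library size only), 1 was higher and 8 were lower for neurons, and 0 passed the test for the oligodendrocyte lineage, against 23.0% higher and 21.7% lower of all genes. The higher gene was Gfap (1.03) for astrocytes and Thy1 (0.44) for neurons, and the lowest were Slc1a2 (-0.32) and Nefl (-1.15). Snap25 of neurons and Slc1a2 of astrocytes, at means of 47240 and 72540 normalized counts in wild-type mice, show brain tissue and do not tell its region.

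The genes most like the 10 across mice were sought by the correlation of log2 CPM with the mean of the 10 genes, over 21 libraries, after each gene was centred within genotype and cohort. The 5 highest were Lyz2 (Pearson r = 0.896, Spearman rho = 0.662), Itgb2 (0.888 and 0.823), 2 of the rows of complement C4b (0.868 and 0.588, and 0.864 and 0.732) and Irf8 (0.858 and 0.712). Without rNLS8 mice 8 and 10, the libraries farthest from the centre, r was 0.711 for Lyz2, 0.777 for Itgb2, 0.697 and 0.8 for the C4b rows and 0.778 for Irf8. These genes were selected for this likeness, so the values are descriptions, and the libraries share their depth and scaling with the 10 genes.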

How the data were processed

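The authors prepared mRNA libraries from neocortex, sequenced paired reads of 100 bp and aligned them to GRCm38. The deposited values are whole counts of reads for each gene symbol, not normalized. The submitters' processing notes name HISAT, HISAT2, Bowtie, Bowtie2, RSEM and mm10 without their roles, and the rule for counting and the strand setting are not given in the sources used here. If reads of near-identical genes were split, counts of such genes are uncertain. Of the rows, 2553 are further copies of a symbol and hold 4.11% of counts.

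Groups came from the genotype and batch labels. Nothing but mouse numbers identifies samples, each taken as 1 mouse. Totals per library were 20700912 to 22263809, and a limit of 3 counts covers only counting error. Genes were filtered by edgeR's default (minimum count 10, minimum total 15), normalized by TMM and tested with edgeR 4.0.16 in R 4.3.3 by the quasi-likelihood test, two-sided, on a model of genotype plus cohort, and p-values were adjusted after Benjamini-Hochberg over all 18248 genes tested. This differs from the authors' DESeq2, which was run as an alternative (DESeq2 1.42.0). Standard errors are log2 fold changes divided by the root of F. CPM values use TMM-corrected library sizes. Positions and exon lengths came from GENCODE M21, and promoter windows from RefSeq (GRCm38.p6). The procedures were tested on simulated counts.

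The 10 genes and all lists were chosen with earlier results of these data known, so no count over them is independent support. The text names the 10 genes, the receptors, ligands, adaptors and direct partners fixed with the lists, otherwise the 3 highest and 2 lowest log2 fold changes of a list, and any other gene as named after its values were seen. A gene that this rule would name is not reported here. The alternatives were DESeq2 with and without cohort, edgeR without cohort, other scalings, other filters, leaving out copy rows, each cohort alone and leaving out mice. The sum of both Trem2 rows and the ratio to the summed microglia genes were chosen after seeing the data.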

Additional observations from a re-analysis of the deposited data

Results flagged for a closer look

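For 6 of the 10 genes, 1 rNLS8 mouse, mouse 8 of cohort A, was far from the others. Its gap to the nearest rNLS8 mouse made up a share of the whole rNLS8 range of 0.814 for Itgax, 0.786 for Clec7a, 0.63 for Spp1, 0.624 for Cst7 and 0.495 for both Axl and Csf1, above Dixon's 95% limit for 10 samples. In a single group chance alone passes this limit about 1 time in 20, and the 6 results concern the same mouse, so they are not separate events. In that mouse Itgax had 149 normalized counts, Clec7a 265, Spp1 852, Cst7 136, Axl 2040 and Csf1 821. It also had the highest sums among rNLS8 mice of general microglia and macrophage genes (839 CPM), 14 homeostatic microglia genes without 4 that other cells share (545 CPM), border macrophage genes (64.6 CPM), monocyte and neutrophil genes (8.01 CPM), interferon response genes (561 CPM) and astrocyte genes (6040 CPM). The astrocyte sum lay within the wild-type range of 5407 to 6735 CPM. Its sums of neuronal genes (5194 CPM) and of lymphocyte and dendritic cell genes (17.0 CPM) were the lowest among rNLS8 mice. The part of these in its levels of the 6 genes was not tested.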

How the results depend on the processing

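Over 34 alternatives, no gene reversed its direction. Trem2, Tyrobp and Cd68 passed the threshold in all 34, and Cst7, Itgax and Clec7a in the 33 that tested them. With at least 10 counts required in every library, Cst7, Itgax and Clec7a left the test and the number of higher genes fell from 7 to 4. Csf1 passed in 33, Axl in 2, and Lpl and Spp1 in 0. Leaving out each mouse in turn gave 7 or 8 higher genes. The ranges over all alternatives were 3.54 to 4.65 for Cst7, 2.61 to 3.69 for Itgax, 2.54 to 3.68 for Clec7a, 0.42 to 0.88 for Trem2, 0.39 to 0.82 for Tyrobp, 0.54 to 0.89 for Cd68 and 0.32 to 0.50 for Csf1 on the log2 scale. Of 130 recomputed list counts, 23 moved by over 1.5 times, most of them in cohort A alone. With library size only, the share of higher genes among calls was 67.9% against 51.4%. No paired analysis was possible because the labels carry no replicate numbers that the genotypes share. Few reads limit Cst7, Itgax and Clec7a in wild-type mice, where 1 read more or less in a library changes the level visibly, and cohort A, with 4 and 3 mice, limits what can be said of a difference between cohorts.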
